A study of Homo sapiens with 4 samples.

Results

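Integrins and laminins are the adhesion receptors and the basement membrane ligands through which an epithelial cell holds on to its surroundings. The genes were taken as all protein-coding genes whose symbol starts with ITGA or ITGB followed by a digit, ITGAV, and the laminin genes LAMA, LAMB and LAMC followed by a digit only, which gave 36 of 19968 protein-coding genes and of 60676 genes in all. They comprised 13 integrin alpha subunits, 8 integrin beta subunits, 5 laminin alpha, 4 laminin beta and 3 laminin gamma subunits, and 3 genes that the symbol rule also takes, ITGB1BP1, ITGB1BP2 and ITGB3BP, which encode proteins that bind integrin tails or were named for doing so and are not subunits. RNA-seq had been done on 2 Synph-293 libraries and 2 HEK293 libraries. Synph-293 is HEK293 made to overexpress synphilin-1, the product of SNCAIP. HEK293 is an established line from human embryonic kidney, and its libraries, labelled WT, served as the control. Both were grown without treatment in DMEM with serum. The labels do not name the promoter of the transgene, nor say whether Synph-293 was 1 clone or a pool. They do not give separate cultures for the 2 libraries of a group either, so that p-values measure the spread between these libraries alone, which may be technical.

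An integrin is a pair of an alpha and a beta chain in the plasma membrane, and the pairing sets which ligand is bound. The chains reach the actin cytoskeleton through talin and kindlin on the beta tail. A laminin is a trimer of an alpha, a beta and a gamma chain that polymerises on the cell surface and carries the basement membrane, where nidogen, perlecan, agrin and type IV collagen join it. In kidney, laminins and laminin-binding integrins border the tubules and the filtration barrier.

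The SNCAIP gene had 22911 and 24834 counts in the Synph-293 libraries, against 17 and 16 counts in the HEK293 libraries, so the labels held. Library totals lay between 13284417 and 16998732 counts. Of 16421 genes with enough counts to test, 10.0% were called higher and 6.58% lower in Synph-293 (quasi-likelihood test in edgeR; p adjusted after Benjamini-Hochberg, threshold 0.05). Markers of other cell types were mixed. The endothelial cadherin CDH5 had 1 to 3 counts per library, the leukocyte gene PTPRC at most 3, and CLDN5 none. The endothelial gene VWF had 43 to 85 counts, the globins HBB and HBA1 had 395 to 553 and 189 to 306 counts, and the neurofilament gene NEFL had 2972 and 2613 counts in Synph-293 and 582 and 539 in HEK293. Epithelial keratins were high, with KRT8 at 1384 and 1123 TPM in Synph-293 and 562 and 672 TPM in HEK293, while EPCAM and CDH1 had at most 16 counts in any library. Of the marker lists for other cells, 2 of 9 epithelial genes tested rose (KRT8 and KRT19, 22.2%), and 1 of 4 endothelial genes rose (ERG, 25.0%), against 10.0% of all genes. ERG had 23 and 24 counts in Synph-293 and 2 and 1 counts in HEK293 (log2 fold change 3.74 ± 0.57, edgeR adjusted p = 0.00128). Of 5 blood genes 0 were called (edgeR, 0 at an unadjusted p under 0.05), and 0 of the 3 lists held a gene that fell. TPM is the authors' level scaled for transcript length and depth, and CPM is the count scaled for depth after TMM normalization. HEK293 replicate 1 stood apart for these genes: it held the highest CPM of the 4 libraries for 21 of the 31 members tested (67.7%), and for 27.5% of all genes tested.

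Of the 31 members tested, 3 rose in Synph-293 (9.68%, against 10.0% of all genes and 10.3% of protein-coding genes) and 4 fell (12.9%, against 6.58% of all genes and 6.95% of protein-coding genes). LAMA2, ITGA8 and ITGA7 rose, and LAMC3, ITGB8, LAMB2 and ITGA1 fell. The changes ran from a log2 fold change of -2.40 for LAMC3 to 2.54 for LAMA2, with a median of -0.28 over the members tested and -0.01 over all genes. Fold changes were below 0 for 21 members and above 0 for 10. At an unadjusted p under 0.05 (edgeR) stood 15 members, 5 higher and 10 lower. Over all 16421 genes tested, 2829 were higher and 2393 lower at that level. Both Synph-293 libraries lay above both HEK293 libraries in CPM for 7 members (30.5% of all genes did so) and below them for 13 (29.1% of all genes did so), and the groups overlapped for 11. LAMC3, LAMA2 and ITGB8 were called whichever library was left out, whereas the other 4 calls were each lost without at least 1 library. Without HEK293 replicate 2, HEK293 replicate 1 alone stood for the control, and the log2 fold changes of most members lay lower. That of LAMC3 was then -2.67 and that of ITGB8 -1.43. More members were called lower in that fit, and so were more genes over the whole table, though there the rise was smaller in proportion. Calls over all genes moved with the library left out as well. The part of HEK293 replicate 1 in the lower values was not tested.

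**Figure D1:**
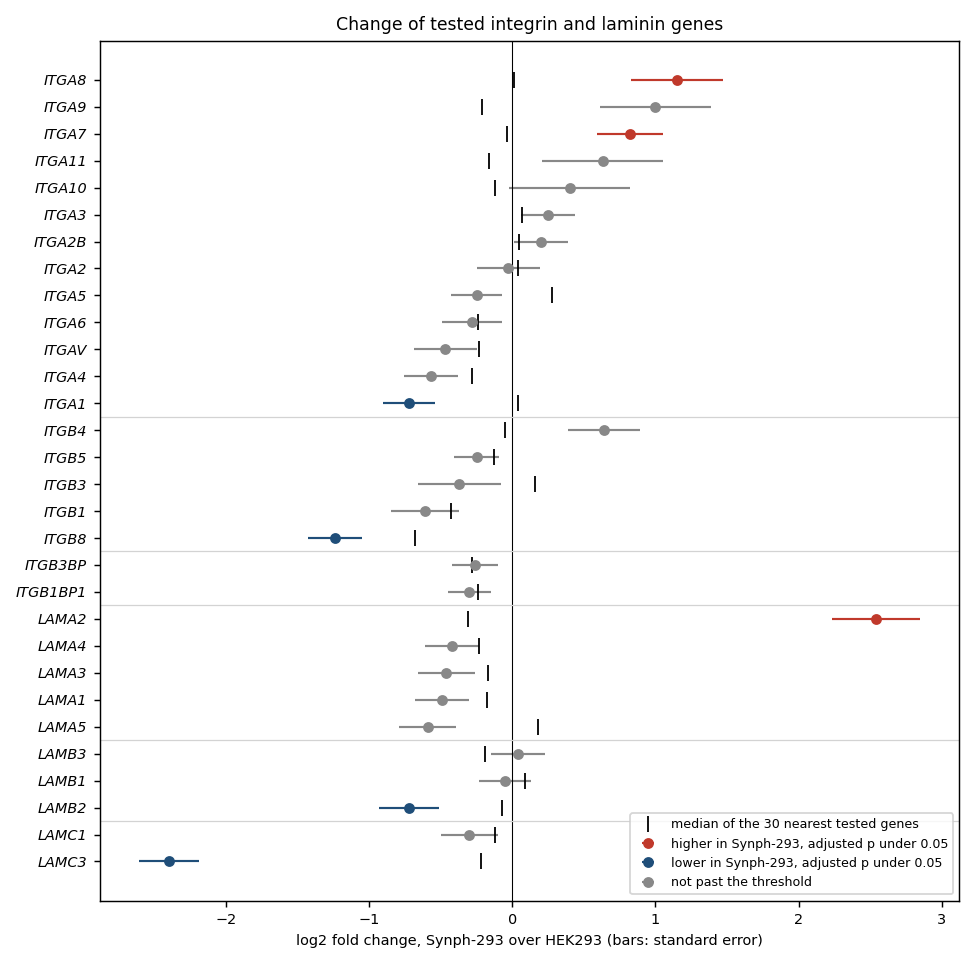
Log2 fold change of 30 of the 31 tested genes, Synph-293 over HEK293, by subunit class, with standard errors as bars and the median of the 30 nearest tested genes as a black tick. LAMC3 at -2.40 and LAMA2 at 2.54 lie farthest from 0, and the tick of ITGB8 stands at -0.68.

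The levels of the genes spanned the range from abundant to absent, and the beta 1 chain was the most abundant integrin mRNA. ITGB1, the common partner of most alpha chains, stood at 182 and 232 TPM in Synph-293 and 376 and 252 TPM in HEK293. Next among the beta chains was ITGB5, a vitronectin receptor chain that pairs with the alpha V chain, with 40.2 and 37.2 TPM in Synph-293 and 45.8 and 40.2 TPM in HEK293. ITGB1 made up 79.6% and 83.4% of the summed beta TPM in Synph-293 and 87.0% and 84.0% in HEK293. The laminin chains were led by LAMA5, LAMB2, LAMB1 and LAMC1, the chains of laminins found widely in epithelial basement membranes.

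**Figure D2:**
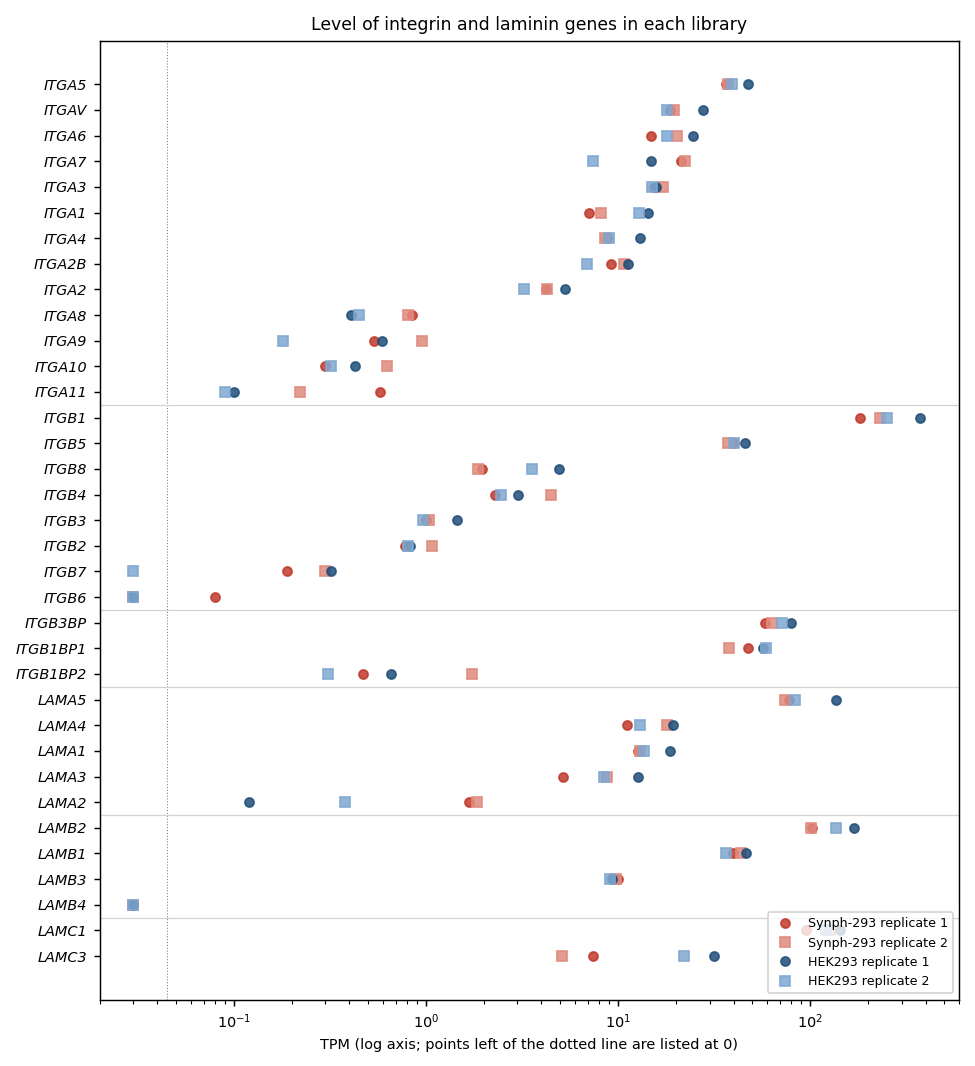
TPM of 35 of the 36 genes in each library on a log axis, ordered within each class by mean level. ITGB1 reached 376 TPM in HEK293 replicate 1, LAMB4 was listed at 0 in every library, and the Synph-293 points of LAMA2 lie right of the HEK293 points while those of LAMC3 lie left of them.

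LAMC3, which encodes a laminin gamma chain known from brain, retina and nerve and from tissues where it need not lie in the basement membrane, fell the most. Its libraries had 274 and 297 counts in Synph-293 and 1846 and 977 counts in HEK293. In TPM this was 7.38 and 5.11 in Synph-293, against 31.5 and 22.1 in HEK293. Both HEK293 libraries lay far above both Synph-293 libraries, although they differed between themselves. On the log2 scale the change was -2.40 ± 0.21 (SE; edgeR adjusted p = 2.19e-05), a level 5.29-fold lower in Synph-293. It ran from -2.67 to -2.09 with 1 library left out, and its 30 nearest tested genes had a median of -0.22. Over the alternatives the adjusted p was 7.86e-51 to 0.107, the highest in limma on log2(TPM + 0.5) without a filter.

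LAMC1, the gamma chain of most laminins, was not called. It stood at 95.7 and 127 TPM in Synph-293 and 144 and 122 TPM in HEK293, and these overlapped (log2 fold change -0.30 ± 0.20, edgeR adjusted p = 0.334). LAMC3 made up 7.13% and 3.87% of the summed gamma-chain TPM in Synph-293 and 17.9% and 15.3% in HEK293, and LAMC1 made up 92.5% and 95.8% in Synph-293 and 81.7% and 84.3% in HEK293.

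Among the laminin alpha chains LAMA2 rose, from a low level. LAMA2 encodes the alpha chain of the laminin of muscle and peripheral nerve, whose loss causes congenital muscular dystrophy. It had 85 and 89 counts in Synph-293 and 14 and 13 counts in HEK293, or 1.68 and 1.84 TPM in Synph-293 against 0.12 and 0.38 TPM in HEK293. The groups did not overlap on either scale. Its log2 fold change was 2.54 ± 0.31 (SE; edgeR adjusted p = 2.89e-04), or 5.83-fold, it stayed between 2.42 and 2.65 with 1 library left out, and its neighbours had a median of -0.31. The adjusted p was 5.56e-09 to 0.135 over the alternatives, the highest in limma on unfiltered log2(TPM + 0.5).

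LAMA2 still made up only 1.55% and 1.59% of the summed laminin alpha TPM in Synph-293, against 0.0642% and 0.319% in HEK293. LAMA5, the alpha chain of the kidney filtration barrier and of most adult epithelia, made up 71.6% and 64.0% in Synph-293 and 72.8% and 70.3% in HEK293. Its level was 77.4 and 74.1 TPM in Synph-293 and 136 and 83.8 TPM in HEK293. Both Synph-293 libraries lay below the others, and HEK293 replicate 1 stood well above HEK293 replicate 2. The log2 fold change of LAMA5 was -0.59 ± 0.20 (edgeR adjusted p = 0.0650, or 0.0239 without the filter on low counts, and DESeq2 adjusted p = 0.0237). With the neighbours' median of 0.18 removed it was -0.77, a call (edgeR adjusted p = 0.0299). ADRM1, on the strand opposite to LAMA5, had 1841 and 1465 counts in Synph-293 and 1287 and 1268 counts in HEK293.

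LAMA1, the alpha chain of the early embryo, stood at 12.7 and 13.0 TPM in Synph-293 and 18.6 and 13.6 TPM in HEK293. LAMA4, found in vessels and muscle, stood at 11.2 and 18.0 TPM in Synph-293 and 19.3 and 13.0 TPM in HEK293, and LAMA3, of epidermal laminin, at 5.16 and 8.82 TPM in Synph-293 and 12.7 and 8.42 TPM in HEK293. None of LAMA1, LAMA3 and LAMA4 passed (log2 fold changes of -0.49 ± 0.19, -0.46 ± 0.20 and -0.42 ± 0.19, edgeR adjusted p = 0.101, 0.144 and 0.161). All 3 were called lower without HEK293 replicate 2 (edgeR adjusted p = 4.07e-04 for LAMA1, 9.78e-04 for LAMA3 and 0.00589 for LAMA4), and so was LAMA5 (1.24e-04). Over their alternatives the adjusted p reached 0.557 for LAMA1, 0.718 for LAMA3, 0.826 for LAMA4 and 0.458 for LAMA5.

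Of the laminin beta chains LAMB2 fell, with a call that rested on the libraries and on the settings used. LAMB2, the beta chain of the kidney filtration barrier and of the nerve-muscle junction, stood at 102 and 101 TPM in Synph-293 and 170 and 137 TPM in HEK293. The Synph-293 libraries nearly coincided and lay below both HEK293 libraries. Its log2 fold change was -0.72 ± 0.21 (edgeR adjusted p = 0.0358). Leaving out Synph-293 replicate 1 gave an edgeR adjusted p of 0.201 and Synph-293 replicate 2 one of 0.0959, neither a call, and leaving out HEK293 replicate 1 gave 0.136, with a log2 fold change of -0.37. Over the alternatives the adjusted p was 4.75e-07 to 0.211, and LAMB2 was called in 6 of 14.

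LAMB1, the beta chain of embryonic and most epithelial laminins, stood at 39.5 and 43.9 TPM in Synph-293 and 46.2 and 36.4 TPM in HEK293 (log2 fold change -0.05 ± 0.18, edgeR adjusted p = 0.879). DLD, on the strand opposite to LAMB1, had 1777 and 1792 counts in Synph-293 and 1849 and 1447 counts in HEK293. LAMB3, of epidermal laminin, stood at 9.98 and 9.76 TPM in Synph-293 and 9.37 and 9.05 TPM in HEK293 (log2 fold change 0.04 ± 0.19, edgeR adjusted p = 0.916). The signs of the changes of LAMB1 and LAMB3 depended on the setting. Accordingly LAMB2 made up 67.4% and 65.4% of the summed beta-chain TPM in Synph-293 and 75.3% and 75.1% in HEK293, while LAMB1 made up 26.0% and 28.3% in Synph-293 and 20.5% and 19.9% in HEK293. LAMB4, which lies 20.4 kb from LAMB1 on chromosome 7, had no count in any library, which allows up to 3 counts in each. Such limits and intervals cover counting error only.

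**Figure D3:**
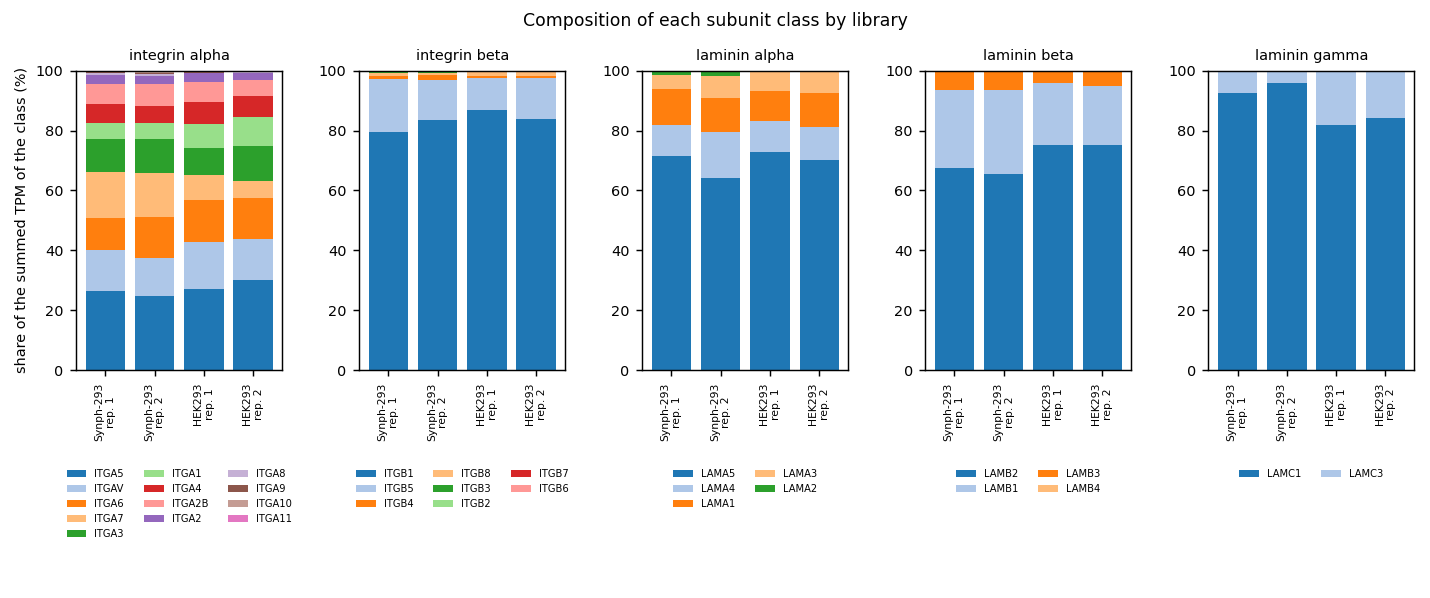
Share of the summed TPM of each subunit class in percent, by library, with the genes stacked in order of their mean share and 1 scarce gene not drawn. LAMC3 took 7.13% and 3.87% of the gamma chains in Synph-293 and 17.9% and 15.3% in HEK293, and ITGA7 took 15.4% and 14.7% of the integrin alpha chains in Synph-293 and 8.40% and 5.68% in HEK293.

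Among the 3 laminin-binding alpha chains ITGA7 rose. ITGA7 encodes the main laminin receptor chain of skeletal muscle, where its loss causes a myopathy. It had 423 and 456 counts in Synph-293 and 320 and 145 counts in HEK293, or 21.2 and 22.3 TPM in Synph-293 and 14.8 and 7.42 TPM in HEK293. The groups did not overlap, but the HEK293 libraries differed from each other about as much as HEK293 replicate 1 differed from Synph-293. The log2 fold change was 0.82 ± 0.23 (edgeR adjusted p = 0.0329). Leaving out Synph-293 replicate 2 (log2 fold change 0.75) or HEK293 replicate 2 (0.48) ended the call, with edgeR adjusted p of 0.0605 and 0.0526, and the log2 fold change was 1.28 without HEK293 replicate 1. The adjusted p was 5.84e-08 to 0.280 over the alternatives. The gene overlaps BLOC1S1 and METTL7B on the opposite strand, which had 669 and 510 counts and 207 and 222 counts in Synph-293, against 586 and 455 counts and 268 and 154 counts in HEK293. Those genes were not called (log2 fold changes of 0.05 ± 0.17 for BLOC1S1 and -0.09 ± 0.20 for METTL7B, edgeR adjusted p = 0.874 and 0.815).

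ITGA3 and ITGA6, the laminin receptor chains of epithelia, were not called. ITGA3 stood at 15.3 and 17.3 TPM in Synph-293 and 15.8 and 15.1 TPM in HEK293 (log2 fold change 0.25 ± 0.19, edgeR adjusted p = 0.395). ITGA6 stood at 14.9 and 20.4 TPM in Synph-293 and 24.6 and 17.9 TPM in HEK293 (-0.28 ± 0.21, edgeR adjusted p = 0.384). Values of both genes overlapped between the groups. ITGA3 was called higher without HEK293 replicate 1 (edgeR adjusted p = 0.0280, up to 0.977 over the alternatives) and ITGA6 lower without HEK293 replicate 2 (0.00969, up to 0.929). ITGB4, the partner of the ITGA6 chain in hemidesmosomes, was at 2.30 and 4.50 TPM in Synph-293 and 3.02 and 2.45 TPM in HEK293 (0.64 ± 0.25, edgeR adjusted p = 0.102), with 89 and 110 counts in Synph-293 and 70 and 47 counts in HEK293. GALK1, on the strand opposite to ITGB4, had 464 to 723 counts.

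Of the 4 collagen-binding alpha chains ITGA1 fell. ITGA1 encodes a receptor chain for type IV and other collagens. It had 376 and 455 counts in Synph-293 and 787 and 479 counts in HEK293, or 7.07 and 8.16 TPM in Synph-293 and 14.4 and 12.9 TPM in HEK293. Synph-293 lay below HEK293 in all libraries. Its log2 fold change was -0.72 ± 0.18 (edgeR adjusted p = 0.0221), and it was not called without Synph-293 replicate 1 (log2 fold change -0.55, edgeR adjusted p = 0.242; 6.99e-06 to 0.242 over the alternatives). In the deposited annotation ITGA1 starts at the same base as PELO, a ribosome rescue factor on the same strand, so reads near the start can belong to either. PELO had 559 and 456 counts in Synph-293 and 539 and 486 counts in HEK293 (-0.16 ± 0.16, edgeR adjusted p = 0.558).

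ITGA2, a type I collagen receptor chain that lies 30.1 kb from ITGA1 on chromosome 5, stood at 4.20 and 4.28 TPM in Synph-293 and 5.32 and 3.23 TPM in HEK293. Its log2 fold change was -0.03 ± 0.22 (edgeR adjusted p = 0.938), and its difference from the change of ITGA1 was not tested. ITGA10 and ITGA11, collagen receptor chains of cartilage and fibroblasts, had 16 and 17 counts and 16 and 18 counts in Synph-293, and 15 and 8 counts and 12 and 8 counts in HEK293, and were not called (edgeR adjusted p = 0.557 and 0.326).

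Of the 4 alpha chains that bind the RGD sequence of fibronectin, vitronectin and fibrinogen, ITGA8 rose and the abundant chains were not called. ITGA8 is required for the outgrowth of the ureteric bud in mouse kidney development. It had 52 and 43 counts in Synph-293 and 22 and 17 counts in HEK293, and the libraries of a group lay close together while the groups did not overlap. In TPM it stood at 0.85 and 0.81 in Synph-293 and 0.41 and 0.45 in HEK293. The log2 fold change was 1.15 ± 0.32 (edgeR adjusted p = 0.0305), and the call ended when Synph-293 replicate 1, Synph-293 replicate 2 or HEK293 replicate 1 was left out (edgeR adjusted p = 0.199, 0.0766 and 0.0502). DESeq2 and limma on TPM did not call it either (DESeq2 adjusted p = 0.211; 0.0113 to 0.339 over the alternatives), and its log2 fold change stayed between 1.04 and 1.26 with 1 library left out.

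ITGA5, the fibronectin receptor chain, was the most abundant alpha chain, at 36.6 and 37.4 TPM in Synph-293 and 47.6 and 39.1 TPM in HEK293 (log2 fold change -0.25 ± 0.18, edgeR adjusted p = 0.364). ITGAV, the alpha chain shared by the vitronectin receptors, stood at 18.6 and 19.5 TPM in Synph-293 and 27.7 and 17.9 TPM in HEK293 (-0.47 ± 0.22, edgeR adjusted p = 0.173). ITGA2B, known as the platelet fibrinogen receptor chain, was listed at 9.16 and 10.7 TPM in Synph-293 and 11.2 and 6.92 TPM in HEK293 (0.20 ± 0.19, edgeR adjusted p = 0.525), whereas its platelet partner ITGB3 was at 1.00 and 1.04 TPM in Synph-293 and 1.45 and 0.97 TPM in HEK293 (-0.37 ± 0.29, edgeR adjusted p = 0.410). All of ITGA5, ITGAV, ITGA2B and ITGB3 overlapped between the groups in CPM. Without HEK293 replicate 2, ITGA5 and ITGAV were called lower (edgeR adjusted p = 0.0457 and 6.96e-05), and over the alternatives they reached 0.935 and 0.862.

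ITGA4 and ITGA9 are the related alpha chains that bind VCAM1, fibronectin and tenascin. ITGA4 stood at 8.76 and 8.61 TPM in Synph-293 and 13.1 and 8.98 TPM in HEK293 (log2 fold change -0.57 ± 0.19, edgeR adjusted p = 0.0628). ITGA9 had 39 and 62 counts in Synph-293 and 34 and 13 counts in HEK293 (1.00 ± 0.39, edgeR adjusted p = 0.107), was called higher without Synph-293 replicate 1 (0.0337) and without HEK293 replicate 1 (0.00527), and reached 0.565 over its alternatives. ITGA4 was called lower without HEK293 replicate 2 (edgeR adjusted p = 4.61e-05) and reached 0.560 over its alternatives. Without the filter on low counts both genes were called, ITGA4 lower and ITGA9 higher (edgeR adjusted p = 0.0322 and 0.0362).

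Among the beta chains ITGB8 fell. ITGB8 pairs with the alpha V chain and is known for activating latent TGF-beta. It had 170 and 183 counts in Synph-293 and 485 and 288 counts in HEK293, or 1.96 and 1.86 TPM in Synph-293 and 4.95 and 3.55 TPM in HEK293. Both Synph-293 libraries lay well below both HEK293 libraries. The log2 fold change was -1.24 ± 0.19 (edgeR adjusted p = 0.00145), or 2.36-fold lower in Synph-293, and it ran from -1.43 to -1.02 with 1 library left out. The 30 genes nearest to it on chromosome 7 had a median of -0.68. With that median removed its log2 fold change was -0.56 and the call was lost (edgeR adjusted p = 0.0953; 1.60e-11 to 0.221 over the alternatives).

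ITGB1 had 7092 and 9354 counts in Synph-293 and 15533 and 7992 counts in HEK293. In CPM it stood at 423 and 574 in Synph-293, against 921 and 599 in HEK293, so the groups did not overlap but the nearest libraries of the 2 groups lay close together, while HEK293 replicate 1 stood far above the rest. The log2 fold change was -0.61 ± 0.24 (edgeR adjusted p = 0.104) with a median of -0.43 for its neighbours on chromosome 10. DESeq2 called it lower (adjusted p = 0.0424), and it was called as well without the filter on low counts (edgeR adjusted p = 0.0241) and without HEK293 replicate 2 (1.67e-04; 1.67e-04 to 0.719 over the alternatives). ITGB5 was not called (-0.25 ± 0.16, edgeR adjusted p = 0.328).

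ITGB2, ITGB6, ITGB7, the binding protein gene ITGB1BP2 and LAMB4 were too scarce to test. ITGB2, the leukocyte beta chain, had 8 and 11 counts in Synph-293 and 7 and 6 counts in HEK293. ITGB6, an epithelial beta chain, had 4 and 0 counts in Synph-293 and none in HEK293. ITGB7, the gut-homing beta chain, had 4 and 3 counts in Synph-293 and 1 and 0 counts in HEK293, a ratio of 6.40 with an exact 95% counting interval of 0.823 to 289. ITGB1BP2, a muscle chaperone known as melusin, had 4 and 15 counts in Synph-293 and 4 and 1 counts in HEK293, a ratio of 3.48 (1.26 to 11.9), and the 2 Synph-293 libraries differed.

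The other binding protein genes were well expressed and not called. ITGB1BP1, which competes with talin for the tail of the beta 1 chain, stood at 47.7 and 37.8 TPM in Synph-293 and 57.0 and 58.8 TPM in HEK293 (log2 fold change -0.30 ± 0.15, edgeR adjusted p = 0.203). ITGB3BP, better known as the centromere protein CENP-R, stood at 58.2 and 63.2 TPM in Synph-293 and 79.2 and 71.7 TPM in HEK293 (-0.26 ± 0.16, edgeR adjusted p = 0.292). Both genes overlap a well expressed gene on the opposite strand, ASAP2 for ITGB1BP1 and PGM1 for ITGB3BP, and their neighbours had medians of -0.24 for ITGB1BP1 and -0.28 for ITGB3BP.

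**Figure D4:**
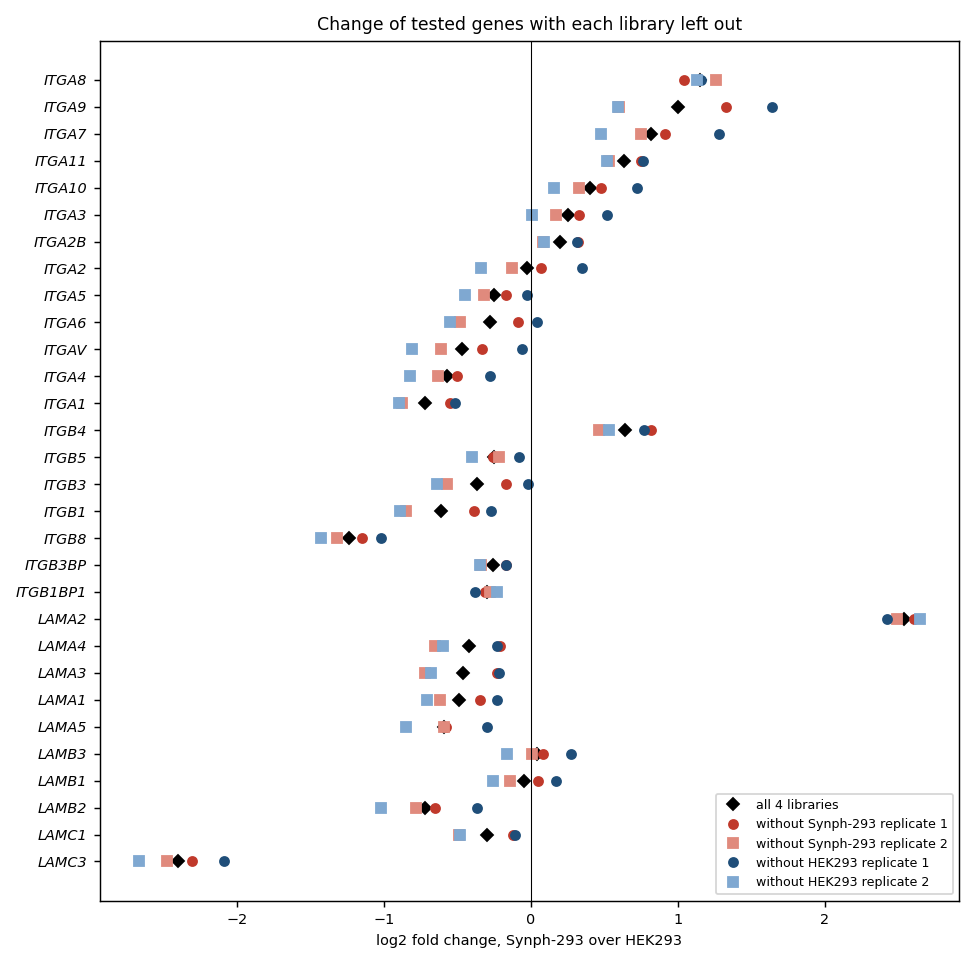
Log2 fold change of 30 of the 31 tested genes with all 4 libraries (black) and with each library left out. LAMC3, LAMA2 and ITGB8 stay on their side of 0, from -2.67 to -2.09, from 2.42 to 2.65 and from -1.43 to -1.02, while the points without HEK293 replicate 2 lie left of the black ones for most genes.

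Promoter windows of 300 bases, from 250 before to 50 after the start of transcription, were available from RefSeq (GRCh38.p14) for 27 of the 36 genes and for 5 of the 7 called. They are shown for both genes called higher that had one and for the integrin genes called lower that had one, so that the sequence at the start of genes that moved can be read beside their values. Capitals mark a match on either strand to 1 of 5 motifs. The TATA box was searched as TATAAA. The second motif, named for its letters, was searched as CCAAT. For the GC box the letters were GGGCGG. AP-1 sites were searched with the letters TGANTCA. The E-box was searched as CACCTG, and overlapping matches were all counted.
LAMA2, higher in Synph-293, chr6:128882888-128883187, plus strand: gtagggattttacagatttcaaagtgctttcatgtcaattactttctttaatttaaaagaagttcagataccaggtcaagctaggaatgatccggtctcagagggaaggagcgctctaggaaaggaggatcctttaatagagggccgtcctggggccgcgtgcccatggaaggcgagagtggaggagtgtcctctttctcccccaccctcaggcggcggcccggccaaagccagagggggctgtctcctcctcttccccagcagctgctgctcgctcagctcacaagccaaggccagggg
ITGA8, higher in Synph-293, chr10:15719873-15720172, minus strand: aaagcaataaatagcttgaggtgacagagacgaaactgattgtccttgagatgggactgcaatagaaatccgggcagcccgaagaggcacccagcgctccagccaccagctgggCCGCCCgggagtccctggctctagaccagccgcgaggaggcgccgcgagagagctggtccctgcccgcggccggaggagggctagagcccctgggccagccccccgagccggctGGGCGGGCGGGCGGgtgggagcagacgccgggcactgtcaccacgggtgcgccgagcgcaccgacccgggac
ITGB8, lower in Synph-293, chr7:20330650-20330949, plus strand: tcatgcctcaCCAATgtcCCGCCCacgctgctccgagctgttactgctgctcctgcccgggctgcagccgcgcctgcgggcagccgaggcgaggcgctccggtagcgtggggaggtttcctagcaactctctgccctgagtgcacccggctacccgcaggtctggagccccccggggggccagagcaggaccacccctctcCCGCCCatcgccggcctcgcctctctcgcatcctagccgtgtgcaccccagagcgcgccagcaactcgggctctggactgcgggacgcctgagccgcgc
ITGA1, lower in Synph-293, chr5:52787666-52787965, plus strand: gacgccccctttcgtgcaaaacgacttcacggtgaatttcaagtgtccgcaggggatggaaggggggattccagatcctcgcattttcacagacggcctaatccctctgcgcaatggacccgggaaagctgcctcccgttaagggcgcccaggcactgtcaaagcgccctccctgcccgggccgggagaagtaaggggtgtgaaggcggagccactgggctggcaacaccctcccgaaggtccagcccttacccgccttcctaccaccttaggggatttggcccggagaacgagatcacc
The ITGA8 window held 4 GC boxes, of which 3 overlap in a row just before the start, and the ITGB8 window held 2 GC boxes and 1 CCAAT box. The windows of LAMA2 and ITGA1 held none of the 5 motifs. GC boxes occurred in 45.0% and CCAAT boxes in 34.6% of the 35116 windows of the table, TATA boxes in 11.5%, AP-1 sites in 7.7% and this E-box in 20.6%. The window of LAMA2 had 10 CpG dinucleotides and a GC content of 55.3%, ITGA8 had 27 and 69.3%, ITGB8 28 and 71.7%, and ITGA1 19 and 61.7%, beside medians of 14 and 58.7% over the table. The RefSeq start site was the deposited gene start for ITGA8 and ITGA1, and lay 3 bases before it for LAMA2 and 198 bases inside the gene for ITGB8. PELO, which was not called, starts at the same base as ITGA1 in the deposited annotation, so the window printed for ITGA1 lies equally at the start of PELO.

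Of 37 listed genes of the adhesion complex, which links integrins to actin and signals from them, 35 were tested. Of these 1 rose and 4 fell (2.86% and 11.4%, against 10.0% and 6.58% of all genes), with a median log2 fold change of -0.10. Fewer were called lower without either Synph-293 library and more without HEK293 replicate 1, and calls over all genes moved the same way. More were called higher without HEK293 replicate 2, as over all genes. More were also called higher without Synph-293 replicate 1, whereas over all genes fewer were. TGFB1I1, which encodes the paxillin relative HIC-5, rose to 12.1 and 7.37 TPM in Synph-293, against 2.88 and 5.01 TPM in HEK293 (log2 fold change 1.78 ± 0.27, edgeR adjusted p = 0.00125). The kindlin FERMT2, which activates integrins at the beta tail, was at 19.1 and 20.1 TPM in Synph-293 and 28.1 and 35.3 TPM in HEK293 and fell by 0.72 ± 0.16 (edgeR adjusted p = 0.0120). The tensins TNS3 and TNS2, which tie beta tails to actin, fell by 0.99 ± 0.15 and 0.54 ± 0.15 on the log2 scale (edgeR adjusted p = 0.00129 and 0.0333). Talin TLN1 was at 68.0 and 68.6 TPM in Synph-293 and 75.5 and 75.2 TPM in HEK293, without a call (-0.40 ± 0.16, edgeR adjusted p = 0.115).

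Of 19 basement membrane partners of laminins tested, 1 rose and 2 fell (5.26% and 10.5%, against 10.0% and 6.58% of all genes), with a median of -0.36. More of them were called lower without HEK293 replicate 2, and more were called higher without HEK293 replicate 1. Over all genes the calls moved the same way in both cases, but the calls lower without HEK293 replicate 2 grew far less in proportion than in this list. PXDN, the peroxidase that cross-links type IV collagen, rose to 30.5 and 37.6 TPM in Synph-293, against 9.99 and 7.06 TPM in HEK293 (log2 fold change 1.99 ± 0.20, edgeR adjusted p = 7.84e-05). The genes called lower were the type IV collagen chains COL4A3 and COL4A4 of the mature kidney filtration barrier, both under the level set for naming and named after their values were seen (-1.95 ± 0.29 and -0.97 ± 0.22, edgeR adjusted p = 0.00109 and 0.0109). Nidogen NID1, perlecan HSPG2 and agrin AGRN, which join laminin to the network or to the cell, were not called (-0.36 ± 0.20, -0.47 ± 0.18 and -0.56 ± 0.21, edgeR adjusted p = 0.250, 0.0987 and 0.0994), and for all 3 HEK293 replicate 1 was the highest library, with 128, 38.4 and 172 TPM.

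Other ligands of integrins were called in both directions. Of 25 tested, 6 rose and 3 fell (24.0% and 12.0%, against 10.0% and 6.58% of all genes), with a median of 0.25. More of them were called higher with HEK293 replicate 1 left out, and fewer with Synph-293 replicate 2 left out. More were called lower with HEK293 replicate 2 left out, and fewer with Synph-293 replicate 1 left out. Calls over all genes moved the same way in each of these. With HEK293 replicate 1 left out, fewer of the list were called lower, whereas over all genes more were. The fibrillar collagen COL3A1 rose to 10.5 and 9.99 TPM in Synph-293, against 2.29 and 1.41 TPM in HEK293 (log2 fold change 2.43 ± 0.22, edgeR adjusted p = 3.50e-05). Tenascin TNC, a ligand of the ITGA9 and ITGA8 chains, rose to 8.06 and 10.6 TPM in Synph-293, against 2.81 and 2.33 TPM in HEK293 (1.80 ± 0.18, edgeR adjusted p = 7.64e-05). TGFB1, whose latent form binds the alpha V integrins, rose by 1.21 ± 0.15 (edgeR adjusted p = 3.53e-04), and CCN1, a matricellular ligand of alpha V integrins, fell by 0.95 ± 0.20 (edgeR adjusted p = 0.00771). COL3A1 and COL1A1 are also in the list of fibroblast markers, of which 5 of 10 could be tested and these 2 rose (40.0%, against 10.0% of all genes). The summed TPM of that list was 39.6 and 37.5 in Synph-293 and 21.6 and 23.6 in HEK293, and the part of such cells was not tested.

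A list of laminin receptors other than integrins, with partners of such receptors, gave 1 rise and 2 falls among 17 tested (5.88% and 11.8%, against 10.0% and 6.58% of all genes), with a median of 0.17. Many of its genes are not laminin receptors themselves: the tetraspanins CD9, CD63, CD81, CD151 and TSPAN4, the sarcoglycans, SSPN, DMD and UTRN. The rise was lost without either Synph-293 library and in DESeq2, while more genes were called higher when either HEK293 library was left out. Fewer were called lower without either Synph-293 library, and more without HEK293 replicate 2. Calls over all genes moved the same way in each of these. Without HEK293 replicate 1 fewer of the list were called lower, whereas over all genes more were. The syndecan SDC2, a heparan sulfate proteoglycan, was at 33.5 and 42.0 TPM in Synph-293 and 115 and 82.7 TPM in HEK293 and fell by 1.34 ± 0.21 (edgeR adjusted p = 0.00138), beside a median of -0.67 for its neighbours. With the neighbours' median removed, neither SDC2 nor SDC1 was called. SDC1 fell by 0.64 ± 0.19 (edgeR adjusted p = 0.0423), and the gene that rose, the sarcoglycan partner SSPN, was under the level set for naming and is named after its value was seen (1.15 ± 0.35, edgeR adjusted p = 0.0423). Dystroglycan DAG1, the main receptor of LAMA2-containing laminins beside integrins, stood at 51.5 and 64.5 TPM in Synph-293 and 68.9 and 52.2 TPM in HEK293 (-0.03 ± 0.20, edgeR adjusted p = 0.933).

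**Figure D5:**
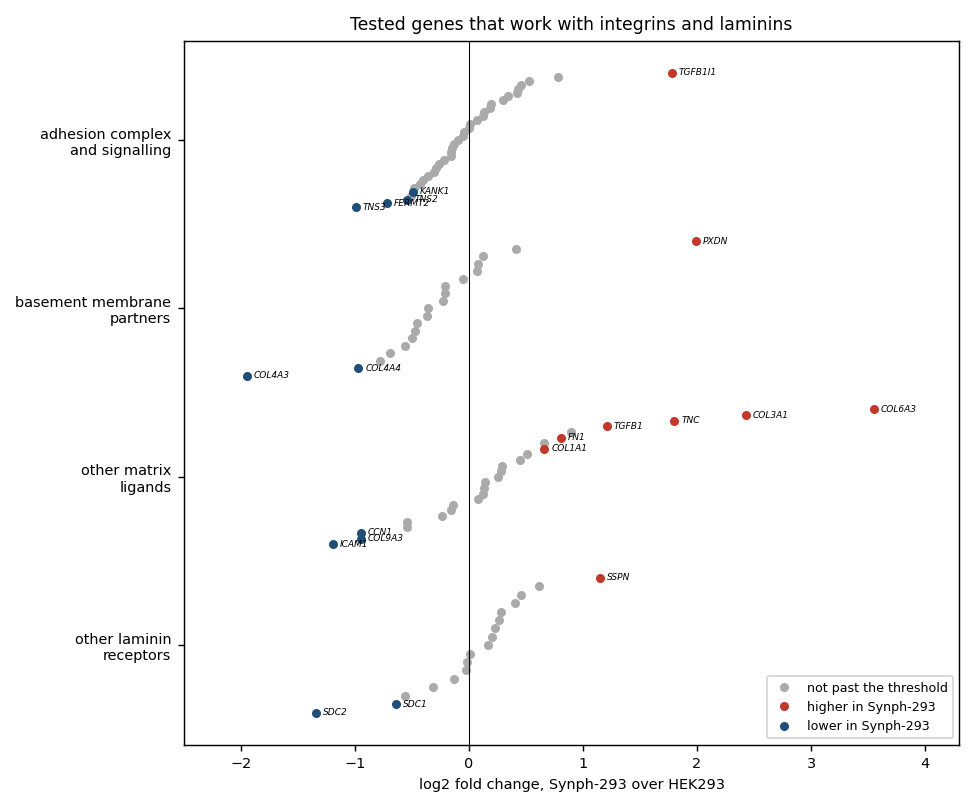
Log2 fold change of each tested gene in 4 lists of partners of integrins and laminins, Synph-293 over HEK293, with called genes named. Most points are grey, and PXDN at 1.99, COL3A1 at 2.43 and SDC2 at -1.34 are among the called ones.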

How the data were processed

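Poly(A) RNA of 2 Synph-293 and 2 HEK293 libraries was sequenced in pairs of reads after a stranded preparation, per the labels' protocols. Upstream tools in the submitters' processing notes were STAR 2.7.1a with HTSeq 0.11.2, RSEM 1.3.1, Cufflinks 2.2.1, cutadapt 2.8 and featureCounts 2.0.0 (build GRCh38.p13), without a role or an order. Neither these nor the labels state the strand setting used in counting. The authors deposited read counts, RPKM and TPM per gene. These deposited counts were handled as estimated counts, as each library listed 43 to 63 genes with no count but some TPM. The tool that made the counts is not given, and whether they were rounded before deposit is not known. RPKM as deposited by the authors was left unused, and TPM as deposited by the authors is scaled for transcript length and depth. Of the members, 26 overlap a gene on the opposite strand. Replicates differed beyond sampling noise (chi-square over degrees of freedom: 18.9 for Synph-293, 27.0 for HEK293). Depth per library sets a floor of 3 counts, or 0.176 to 0.226 CPM.

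Tests used edgeR 4.0.16 in R 4.3.3. After filterByExpr (minimum count 10, minimum total 15) and TMM scaling, a quasi-likelihood model with only the group was fitted to 16421 genes, with Benjamini-Hochberg adjustment over all of them and a threshold of 0.05. The SE is the absolute log2 fold change over the square root of F. Alternatives were DESeq2 1.42.0, limma 3.58.1 on log2(TPM + 0.5) and log2(TPM + 1), other scalings and filters, each library left out, the replicate number as a block, and removal of the median of the 30 nearest tested genes. The tests were tried on simulated counts. Members and lists were chosen with earlier results of these data known. Values are given for each member past the threshold or with a mean of at least 5 TPM, and for up to 4 called genes of each list with such a mean in the higher group. Other genes (TLN1, NID1, HSPG2, AGRN, DAG1, KRT8, VWF, HBB, HBA1, NEFL, BLOC1S1, METTL7B, PELO, PAX2, SALL1 and SIX2, and the scarce members and integrin chains) were named outside that rule after their values were seen. The same holds for CDH5, PTPRC, CLDN5, EPCAM, CDH1, KRT19, ERG, STMN2 and COL1A1, and for the overlapping genes ADRM1, DLD, GALK1, ASAP2 and PGM1. 1 member, counted in the totals, is not reported here. Same-numbered libraries were not taken as pairs, as the labels give no shared culture or day.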

Additional observations from a re-analysis of the deposited data

How the results depend on the processing

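RLE scaling, library totals alone and a minimum of 1 CPM gave 3 members higher and 4 lower, as with TMM. Without a filter 7 were lower. In limma on unfiltered log2(TPM + 0.5), 0 members were higher and 0 lower, with 2 and 5 at an unadjusted p under 0.05, and over all genes 12 were higher and 6 lower; the cause was not tested. DESeq2 called 2 higher and 6 lower. With 1 library left out, members called higher ranged from 1 to 4 and lower from 2 to 13, and over all genes from 1049 to 2183 higher and 457 to 2042 lower; the lone library of a group is then assumed to vary like the other group. Genes lower over the whole table were 514 and 521 in limma on log2(TPM + 0.5) and log2(TPM + 1), and 540 with the neighbours' median removed.

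With the replicate number as a block, 3 members were higher and 3 lower (LAMB2 lost, edgeR adjusted p = 0.0624) and 719 genes of all were lower. In the lists the block left 2 adhesion complex genes lower, and 0 genes of the laminin receptor list higher and 1 lower. Same-numbered libraries deviated from their group means with a correlation of -0.39 across genes. With crossed pairing, chosen after seeing the data, 5 members were higher and 13 lower, and 3251 genes of all higher and 3016 lower.

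Sign changes concerned members not called with all 4 libraries. LAMB1 had a log2 fold change of 0.02 in the limma fits, 0.05 without Synph-293 replicate 1, and -0.26 to 0.17 over the libraries left out. ITGA2 had 0.02 in the limma fits, 0.07 without Synph-293 replicate 1, -0.34 to 0.35 over the libraries left out and 0.00 with the replicate block. With a library left out, ITGA6 ran from -0.55 to 0.04 and LAMB3 from -0.16 to 0.27. ITGB3BP had 0.03 with the neighbours' median removed. Of 432 values of members under the alternatives, 375 kept direction and side of the threshold, 24 lost a call, 19 gained one and 14 changed sign. Low counts limit ITGA8, ITGA9, ITGA10, ITGA11 and LAMA2, where the fewest counts in a library were 8.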

Other observations

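The integrin chains that the symbol rule does not take are mostly leukocyte chains. ITGAE, the alpha chain of a receptor for E-cadherin on T cells, was listed at 28.4 and 22.8 TPM in Synph-293 and 36.6 and 27.2 TPM in HEK293 (log2 fold change -0.23 ± 0.21, edgeR adjusted p = 0.488). In TPM alone this lay above most of the alpha chains described. In counts ITGAE had 160 and 145 in Synph-293 and 208 and 123 in HEK293. Its mean CPM, 9.22 in Synph-293 and 10.8 in HEK293, lay below that of most of those chains. The usual partner of ITGAE, ITGB7, had at most 4 counts in a library. ITGAX had 36 and 36 counts in Synph-293 and 50 and 17 counts in HEK293, and ITGAL had 4 and 6 counts in Synph-293 and 3 and 8 counts in HEK293. ITGAM had 12 and 15 counts in Synph-293 and 10 and 2 counts in HEK293. None of the 3 that could be tested was called (edgeR adjusted p = 0.235 for ITGAM and 0.994 for ITGAX; 0 had an unadjusted p under 0.05).

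Of 6 neuronal markers tested from 10 listed, 5 rose in Synph-293 and 0 fell (83.3% higher, against 10.0% of all genes). Their summed TPM was 126 and 106 in Synph-293 and 31.1 and 32.0 in HEK293, with STMN2 at 0 in all libraries. Their part in the laminin and integrin values was not tested. Of 10 embryonic kidney markers, all tested, 2 rose, 1 fell and 7 were not called. Over all genes 10.0% rose and 6.58% fell, and a difference of the list from these shares was not tested. PAX2 and SALL1 rose (log2 fold changes of 2.87 ± 0.33 and 1.62 ± 0.19, edgeR adjusted p = 1.84e-04 and 2.47e-04), and SIX2 fell (-0.76 ± 0.21, edgeR adjusted p = 0.0288).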
